A study of Mus musculus with 4 samples.

Results

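Hyaluronan is a long, unsulfated sugar chain, and 9 genes that make it, cut it, bind it or lubricate surfaces with it were followed in mouse peritoneal mesothelium. The genes were taken by symbol from the deposited table of 48425 genes, and all 9 were found: the hyaluronan synthases Has1, Has2 and Has3, the hyaluronidases Hyal1 and Hyal2, the surface hyaluronidase Tmem2, the receptor Cd44, the hyaluronan-binding proteoglycan Vcan and the lubricant Prg4. The study holds 1 group of 4 samples: mesothelial cells freshly isolated from C57BL/6 mice 10 weeks old, with no treatment, no altered allele and no control group. The cells were detached by filling the cavity with 0.25% trypsin and EDTA for 20 min at 37 °C, then sorted as CD45-, podoplanin+ and Gpm6a+. The design text counts 4 animals, which are numbered here as in the sample titles.

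Hyaluronan is built at the plasma membrane by the synthases from UDP-glucuronic acid and UDP-N-acetylglucosamine and is pushed out of the cell as it grows. Turnover starts at the surface, where Hyal2 and Tmem2 cut long chains, and goes on in lysosomes, where Hyal1 and the exoglycosidases finish the work. In serosal cavities such as the peritoneum, mesothelial cells are known for a hyaluronan-rich coat on their microvilli and for surface-active lubricants that let organs slide past each other.

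The libraries held 4090224 to 4569578 estimated counts. Levels are in CPM, the deposited counts of a library scaled to a common total, and errors are SD over 4 animals. A gene at 0 in a library may lie as high as 3 counts allow, which was 0.657 to 0.733 CPM per library and 0.171 CPM over the group. Such floors, and the intervals given for single animals, hold counting error alone; the labels mention no molecular identifiers, so reads may not be independent molecules. All 10 mesothelial markers examined, among them Msln and Upk3b, lay above 1 CPM, with a summed level of 15056 to 17022 CPM per animal. These 10 include Pdpn and Gpm6a, whose proteins the cells were sorted on, so their presence is no independent check of the sort. The 8 fibroblast markers summed to 582 to 617 CPM, with 7 above 1 CPM, or 87.5%. For comparison, 24.7% of all genes and 52.1% of the genes with a value in any animal lay above 1 CPM. None of 9 leukocyte markers passed in the edgeR test described below (1 at unadjusted p under 0.05, 0 by DESeq2, 0 by limma with voom weights), and Itgam and Coro1a were at 0. The 9 include Ptprc, the gene of CD45, which the sort excluded. Summed, the 9 leukocyte markers had 25.6, 2.25, 1.06 and 0.883 CPM in animals 1 to 4, so animal 1 stood apart.

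Of the 9 genes, 7 were expressed above 1 CPM and 2, Has2 and Has3, were not. Each gene's level was tested against 1 CPM, one-sided, by edgeR's quasi-likelihood test with Benjamini-Hochberg adjustment over all 48425 genes. The adjusted p of the 7 ranged from 2.97e-22 for Hyal2 to 4.92e-07 for Tmem2, and it was 1 for Has2 and for Has3. The size of these values depends on the method. By limma with voom weights the adjusted p was 4.29e-06 for Hyal2, 0.00616 for Prg4 and 0.0123 for Vcan. As background, 24.7% of all 48425 genes passed, and 52.1% of the 22936 genes with a value in any animal. The median of the members' mean levels was 11.4 CPM, against 3.17 CPM over the genes with a value. In bulk samples, fewer cells of a type and less RNA per cell cannot be told apart.

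**Figure D1:**
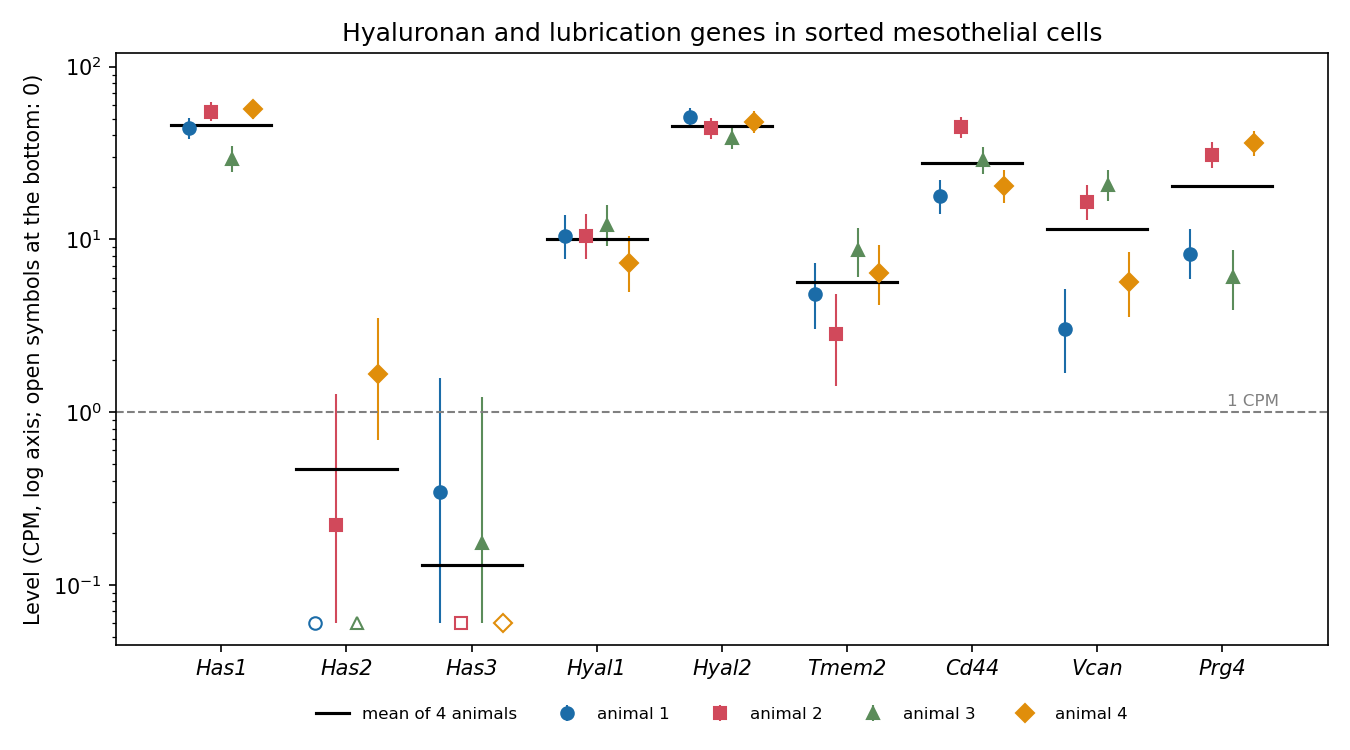
Level of each gene in each animal (CPM, log axis). Symbols are animals, vertical lines are exact 95% Poisson intervals for counting error, black bars are means of 4 animals, open symbols at the bottom are values of 0, and the dashed line is 1 CPM. Has1 and Hyal2 average 46.2 and 45.3 CPM, Has2 and Has3 lie near 0, and among the 7 genes above 1 CPM Prg4 and Vcan differ most between animals.

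Among the synthases, Has1 carried nearly all the counts. Has1 (chromosome 17, 17843323 to 17855205) had 44.2, 54.8, 29.1 and 56.7 CPM in animals 1 to 4, a mean of 46.2 ± 12.7 CPM. Animal 3 was the lowest, and its counting interval lay below those of the other 3 animals. Has2 (chromosome 15, 56665627 to 56694539), the synthase known for most hyaluronan in the mouse embryo, had 0, 0.221, 0 and 1.66 CPM, which is 8 counts in all. Has3 (chromosome 8, 106870242 to 106884566), which is known for making shorter chains, had 0.344, 0, 0.174 and 0 CPM, or 2 counts in all. Animal 4 held nearly all Has2 counts, and no animal had more than 7 counts of either gene.

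Has1 made up 99.0%, 99.6%, 99.3% and 97.1% of the synthase counts in animals 1 to 4. Over all animals this was 806 of 816 counts, or 98.8% (exact 95% interval for counting error 97.8% to 99.4%). This interval pools the counts of the animals and leaves out the spread between them: animals 2 and 4 lay outside it. After division by transcript length, the summed Has1 counts were 204 times those of Has2 (95% interval for counting error 103 to 474) and 798 times those of Has3 (220.3 to 6603). Without animal 4 the ratio to Has2 was 1161, since that animal held the Has2 counts. In animals 1 and 3, where Has2 was at 0, Has1 was at least 136-fold and 89.3-fold higher per length than the floor of 3 counts. In animals 2 and 4, where Has3 was at 0, Has1 was at least 158-fold and 153-fold higher. The synthases are similar proteins, but only 0.176% of the 31-base words of the Has1 transcripts occur in any other gene's transcripts. For Has2 this share was 3.33%, most of it with the antisense RNA gene Has2os, which had 0, 0.490, 0 and 0 CPM. For Has3 it was 5.07%, all with Chtf8 on the opposite strand.

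The 250 bases before the RefSeq start of Has1 are shown because this synthase alone had a level above 1 CPM. Sequences run 5′ to 3′ on the gene's strand (RefSeq, GRCm38.p6), and capitals mark matches on either strand to one of 5 motifs: the cAMP response element TGACGTCA, the AP-1 site TGANTCA, the GC box GGGCGG, the CCAAT box CCAAT and the TATA box TATAAA.
Has1, chr17:17855189-17855438, minus strand: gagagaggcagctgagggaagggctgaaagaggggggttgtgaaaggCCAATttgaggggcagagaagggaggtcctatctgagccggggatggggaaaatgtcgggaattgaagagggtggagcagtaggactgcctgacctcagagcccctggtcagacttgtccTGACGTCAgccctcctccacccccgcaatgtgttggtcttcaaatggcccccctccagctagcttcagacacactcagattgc
The Has1 window held a cAMP response element at -83 to -76 and a CCAAT box at -203 to -199, counted from the start. Among 32851 RefSeq promoter windows of the same length, 1.55% held this cAMP response element and 33.8% a CCAAT box. No match to the AP-1 site, which 6.75% of the windows held, to the GC box (32.7%) or to the TATA box (12.4%) was found in these bases. A match is a match of letters and not a measured site.

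The sugar precursors of hyaluronan were covered by 7 genes, and all 7 lay above 1 CPM. The background shares were 52.1% of genes with a value and 24.7% of all genes. Gfpt2, an isoform of the enzyme that commits fructose 6-phosphate to the hexosamine pathway, had 128, 312, 86.1 and 99.4 CPM in animals 1 to 4. Ugdh, which oxidises UDP-glucose to UDP-glucuronic acid, had 91.7, 202, 75.1 and 124 CPM. Ugp2, which makes UDP-glucose, had 91.4, 111, 89.0 and 109.8 CPM. The list's median was 36.1 CPM. Its sum was highest in animal 2, at 792 CPM, against 367 to 440 CPM in the other 3 animals.

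Of the 3 hyaluronidase genes, Hyal2 had the highest level per length and the smallest spread between animals. Hyal2 encodes a hyaluronidase anchored to the cell surface that cuts long chains into fragments, and lies on chromosome 9 at 107567945 to 107572779. It had 50.8, 44.0, 38.7 and 47.9 CPM, a mean of 45.3 ± 5.26 CPM, and the counting intervals of all 4 animals overlapped. Its coefficient of variation was 11.6%, where counting alone gives 7.09%. No 31-base word of its transcripts occurs in another gene.

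Hyal1, the lysosomal hyaluronidase, starts 4147 bases after the end of Hyal2 on the same strand, at 107576927 to 107581710. It had 10.4, 10.5, 12.1 and 7.27 CPM, a mean of 10.1 ± 2.02 CPM, with overlapping counting intervals in all animals. The level is uncertain, because 50.7% of its 31-base words occur in other genes. Most of these lie in Nat6, an overlapping gene on the same strand (Naa80 in the annotation), which had 24.5, 39.9, 41.2 and 50.9 CPM. Hyal3, a further hyaluronidase gene of the cluster, overlaps Hyal1 and had 0.422, 4.12, 0.799 and 0 CPM. The sources used here do not say how the authors' counting split these reads.

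The windows before the RefSeq starts of Hyal2 and Hyal1 are shown as neighbours with unequal levels, with the same 5 motifs in capitals. The gene positions given above come from the GENCODE annotation, whose starts differ from those of RefSeq. The Hyal2 window lies inside the gene as placed there (from 107567945). The Hyal1 window ends past the GENCODE start (107576927).
Hyal2, chr9:107568913-107569162, plus strand: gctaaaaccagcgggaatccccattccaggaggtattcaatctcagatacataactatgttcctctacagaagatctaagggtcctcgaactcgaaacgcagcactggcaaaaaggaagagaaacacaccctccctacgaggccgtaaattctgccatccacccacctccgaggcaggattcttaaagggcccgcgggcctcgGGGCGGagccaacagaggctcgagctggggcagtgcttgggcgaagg
Hyal1, chr9:107576700-107576949, plus strand: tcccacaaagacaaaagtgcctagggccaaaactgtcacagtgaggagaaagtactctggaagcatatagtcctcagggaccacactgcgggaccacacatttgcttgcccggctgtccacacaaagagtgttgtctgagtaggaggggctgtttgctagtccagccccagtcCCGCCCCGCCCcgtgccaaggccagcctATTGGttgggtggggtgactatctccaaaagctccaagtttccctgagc
The Hyal2 window held a GC box at -47 to -42 and 13 CpG dinucleotides, where the median promoter window held 6. The Hyal1 window held overlapping GC boxes at -77 to -72 and -72 to -67, a CCAAT box at -49 to -45 and 5 CpG dinucleotides.

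Tmem2 (Cemip2 in the annotation, chromosome 19, 21778342 to 21858360) encodes a membrane protein described as a hyaluronidase of the cell surface. It had 4.82, 2.82, 8.67 and 6.38 CPM, a mean of 5.67 ± 2.47 CPM. Only animals 2 and 3 lay apart beyond counting error. Its relative Cemip, which takes part in hyaluronan breakdown in skin and joint fibroblasts, had 0.627, 1.28, 0.341 and 0.382 CPM, did not pass and was named after its values were seen.

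In the list of other hyaluronidases and lysosomal exoglycosidases, 2 of the 8 genes reported lay above 1 CPM, and both were exoglycosidases. These 2 were 25% of the list as reported, near the 24.7% of all genes and below the 52.1% of genes with a value. Hexa, which encodes a lysosomal hexosaminidase subunit, had 96.0, 118, 105 and 122 CPM. Gusb, the beta-glucuronidase, had 21.9, 18.4, 31.6 and 19.7 CPM. These enzymes remove single sugars from the ends of hyaluronan fragments. Hyal4, Hyal5, Hyal6 and Spam1, of which Spam1 is known from sperm, were at 0 in every animal.

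Cd44 (chromosome 2, 102811141 to 102901665), the main surface receptor for hyaluronan, had 17.8, 44.5, 28.8 and 20.2 CPM, a mean of 27.8 ± 12.1 CPM. Animal 2 was the highest and animal 1 the lowest, 2.5-fold apart, and animal 2 lay above every other animal beyond counting error. Cd44 is also a leukocyte gene. The leukocyte markers summed to 25.6 CPM in animal 1, where Cd44 was at its lowest, and to 2.25 CPM or less in the other animals. Without animal 1 the mean of Cd44 was 31.2 CPM. The part of leukocytes in the Cd44 levels was not tested. The gene has 8 coding transcripts of 1305 to 5614 bases, and the deposited values do not separate them.

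Of 12 genes for proteins that tether or cleave Cd44 or splice its RNA, 9 lay above 1 CPM, with a list median of 56.9 CPM. The share was 75%, against 52.1% of genes with a value and 24.7% of all genes. Ezr, the gene of ezrin, which links Cd44 and other membrane proteins to actin in microvilli, had 673, 926, 624 and 744 CPM. Msn, the gene of the related linker moesin, had 164, 177, 141 and 162 CPM. Adam10, a protease that sheds the outer part of Cd44, had 100.4, 167, 124 and 119 CPM. Esrp1, an epithelial splicing regulator known to control the variable exons of Cd44, was at 0 in every animal. Its paralog Esrp2, named after its values were seen, had 11.2, 3.01, 5.16 and 5.89 CPM and passed.

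Of 8 other hyaluronan receptor genes, 4 lay above 1 CPM, or 5 by limma with voom weights and with a minimum of 10 counts. The 4 were 50% of the list, near the 52.1% of genes with a value and above the 24.7% of all genes. Icam1, an adhesion receptor also reported to bind hyaluronan, had 90.5, 104, 115 and 109.7 CPM. Tlr4, an innate immune receptor that hyaluronan fragments are reported to engage, had 22.9, 26.2, 28.0 and 19.0 CPM. Layn, the gene of the hyaluronan receptor layilin, had 19.8, 17.4, 24.7 and 10.5 CPM. The scavenging receptors of sinusoidal and lymphatic endothelium, Stab2 and Lyve1, were at 0 in every animal. None of 5 endothelial and none of 5 lymphatic markers passed (0 and 0 at unadjusted p under 0.05, 0 and 0 by DESeq2, 0 and 0 by limma with voom weights), and Cdh5 and Flt4 were at 0.

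Vcan (chromosome 13, 89655312 to 89742509), the gene of versican, a large proteoglycan whose end domain binds hyaluronan, differed widely between animals. It had 3.04, 16.4, 20.7 and 5.64 CPM, a mean of 11.4 ± 8.44 CPM. Animals 2 and 3 were high and animals 1 and 4 low, a span of 6.79-fold, and each high animal lay above each low one beyond counting error. The coefficient of variation was 73.8%, where counting alone gives 14%, and 94.9% of 2538 genes of like level (within 1.5-fold) varied less. The fibroblast markers as a whole ran level, at 594, 582, 617 and 593 CPM in animals 1 to 4. Single markers did not. Mfap5, a fibroblast microfibril gene, had 72.8, 169, 150.2 and 34.8 CPM, and the mesothelial keratin gene Krt19 had 1749, 3120, 3091 and 1239 CPM. Both were high in the same animals as Vcan. The mesothelial markers Bnc1 (79.7, 146, 149 and 102 CPM), Wt1 and Lrrn4 were also highest in animals 2 and 3. Upk1b (2409, 2039, 1995 and 2456 CPM) and Upk3b (4448, 3920, 3990 and 4184 CPM) were lowest there. Krt7 ran level, at 804, 824, 773 and 849 CPM. The fibroblast markers Dpt, with 5.30, 16.8, 8.15 and 1.67 CPM, and Pi16 were also highest in animals 2 and 3. Pi16 had 1.04, 2.15, 2.41 and 0.615 CPM and did not pass. Further fibroblast markers ran otherwise. Col14a1, the most abundant, had 301, 149, 286 and 388 CPM, Thy1 had 31.2, 10.5, 30.4 and 33.8 CPM, and Lum had 87.4, 131, 37.3 and 48.5 CPM. Of the smooth muscle and pericyte markers, the intermediate filament gene Des had 13.8, 34.3, 35.6 and 15.3 CPM, high in animals 2 and 3. Acta2 and Myh11 of that list ran otherwise and were lowest in animal 2. Acta2 had 152, 60.6, 107 and 64.2 CPM, and Myh11 had 11.8, 5.50, 14.8 and 9.68 CPM. These markers were named after their values were seen, and their part in the Vcan levels was not tested.

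Of 6 genes for proteases that cleave versican, 4 lay above 1 CPM. This was 66.7%, against 52.1% of genes with a value and 24.7% of all genes. Adamts1, a secreted metalloprotease gene, had 76.7, 79.7, 64.1 and 92.1 CPM. Its relative Adamts5, also known for cleaving aggrecan, had 23.8, 30.5, 27.8 and 55.2 CPM, with animal 4 the highest. Adamts15 had 12.0, 16.1, 17.7 and 7.26 CPM and was lowest in animal 4.

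Of 17 other genes for matrix and coat proteins of hyaluronan, 3 lay above 1 CPM and 11 were at 0 in every animal. That is 17.6% above 1 CPM, below the 52.1% of genes with a value and the 24.7% of all genes. The median gene of the whole table was at 0. Itih5, an inter-alpha-trypsin inhibitor heavy chain gene, had 15.4, 64.5, 25.7 and 14.7 CPM. Tnfaip6, the gene of TSG-6, an enzyme that moves heavy chains onto hyaluronan, had 16.4, 10.1, 4.30 and 14.8 CPM. Habp4, named for hyaluronan binding though it encodes an intracellular protein, had 4.49, 7.60, 6.84 and 5.06 CPM. At 0 were the proteoglycans Acan and Bcan, the link protein genes Hapln1 to Hapln4, the plasma heavy chain genes Itih1, Itih3 and Itih4, and Ambp and Habp2, which the liver is known to express. A count of 0 over the group allows up to 0.171 CPM.

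Prg4 (chromosome 1, 150449412 to 150466165), the gene of lubricin, a mucin-like glycoprotein known for boundary lubrication of joints, lay above 1 CPM in every animal. It had 8.23, 30.9, 6.03 and 36.0 CPM, a mean of 20.3 ± 15.4 CPM. Animals 2 and 4 were high and animals 1 and 3 low, a span of 5.97-fold, and each high animal lay above each low one beyond counting error. The coefficient of variation was 75.7%, where counting alone gives 10.7%, and 98.1% of 2867 genes of like level varied less. The gene overlaps Tpr on the opposite strand, and 4.96% of the 31-base words of Prg4 occur there. Tpr had 159, 134, 153 and 142 CPM, and the part of shared reads in the Prg4 levels was not tested. Of 6 smooth muscle and pericyte markers 4 passed (66.7%, against 52.1% of genes with a value and 24.7% of all genes), and Lmod1 was at 0. Their sum was 180.2, 106, 162 and 93.7 CPM in animals 1 to 4, higher in the animals where Prg4 was low. Most of this sum was Acta2, the gene of smooth muscle actin, with 152, 60.6, 107 and 64.2 CPM. Myh11 had 11.8, 5.50, 14.8 and 9.68 CPM, also higher in animals 1 and 3. Des, with 13.8, 34.3, 35.6 and 15.3 CPM, and Cspg4, with 2.99, 4.67, 4.49 and 4.51 CPM, ran otherwise. These markers were named after their values were seen. Their part in the Prg4 levels was not tested. Markers of synovial lining and cartilage, where lubricin is best known, were low, with a sum of 2.25 to 6.13 CPM. Of these 5 markers 1 passed, or 20%, near the 24.7% of all genes and below the 52.1% of genes with a value. The marker that passed, Clic5, had 2.02, 3.30, 6.13 and 2.84 CPM, which was most of that sum. Acan was at 0.

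**Figure D2:**
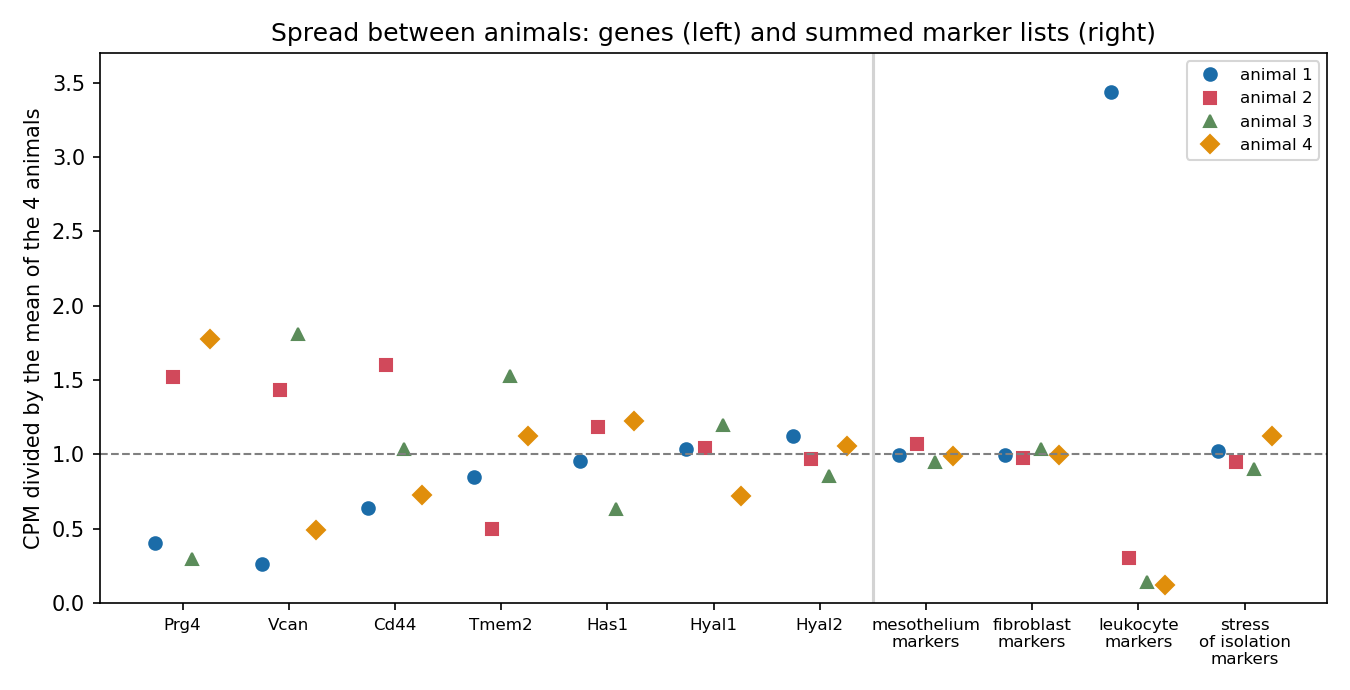
Level in each animal divided by the mean of the 4 animals, for the 7 genes above 1 CPM (left of the grey line) and for summed marker lists (right). Prg4 is high in animals 2 and 4 and Vcan in animals 2 and 3, while the fibroblast and mesothelial marker sums stay close to 1 and the leukocyte sum is high in animal 1.

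Of the 7 genes above 1 CPM, Prg4 and Vcan had the widest spread, and they shared only animal 2 among their high animals. With 4 animals no correlation across samples was computed. The summed level of 8 genes of the response to isolation, Fos and Jun among them, was 9130 to 11399 CPM, of which Fos alone had 3948 to 5382 CPM. Single genes of that list varied more. The heat shock gene Hspa1a had 67.3, 292, 189.7 and 105 CPM and its near copy Hspa1b 14.4, 54.3, 60.4 and 20.8 CPM, high in animals 2 and 3 as Vcan was. Klf6, a transcription factor gene, had 2266, 1175, 1195 and 2222 CPM and was low in those animals. These 3 genes were named after their values were seen, and their part in the members' levels was not tested.

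Of 11 other genes of the serosal surface, 6 lay above 1 CPM, with a list median of 26.2 CPM. The 6 were 54.5% of the list, near the 52.1% of genes with a value and above the 24.7% of all genes. Sdc4, a cell-surface heparan sulfate proteoglycan, had 3498, 5223, 4632 and 4474 CPM. Anxa1, which encodes an anti-inflammatory membrane-binding protein, had 3368, 3544, 2755 and 3382 CPM, and Msln, the gene of mesothelin, had 2569.9, 2409, 1682 and 2369 CPM. The surfactant protein genes Sftpa1, Sftpb, Sftpc and Sftpd, known from lung, were at 0 in every animal.

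**Figure D3:**
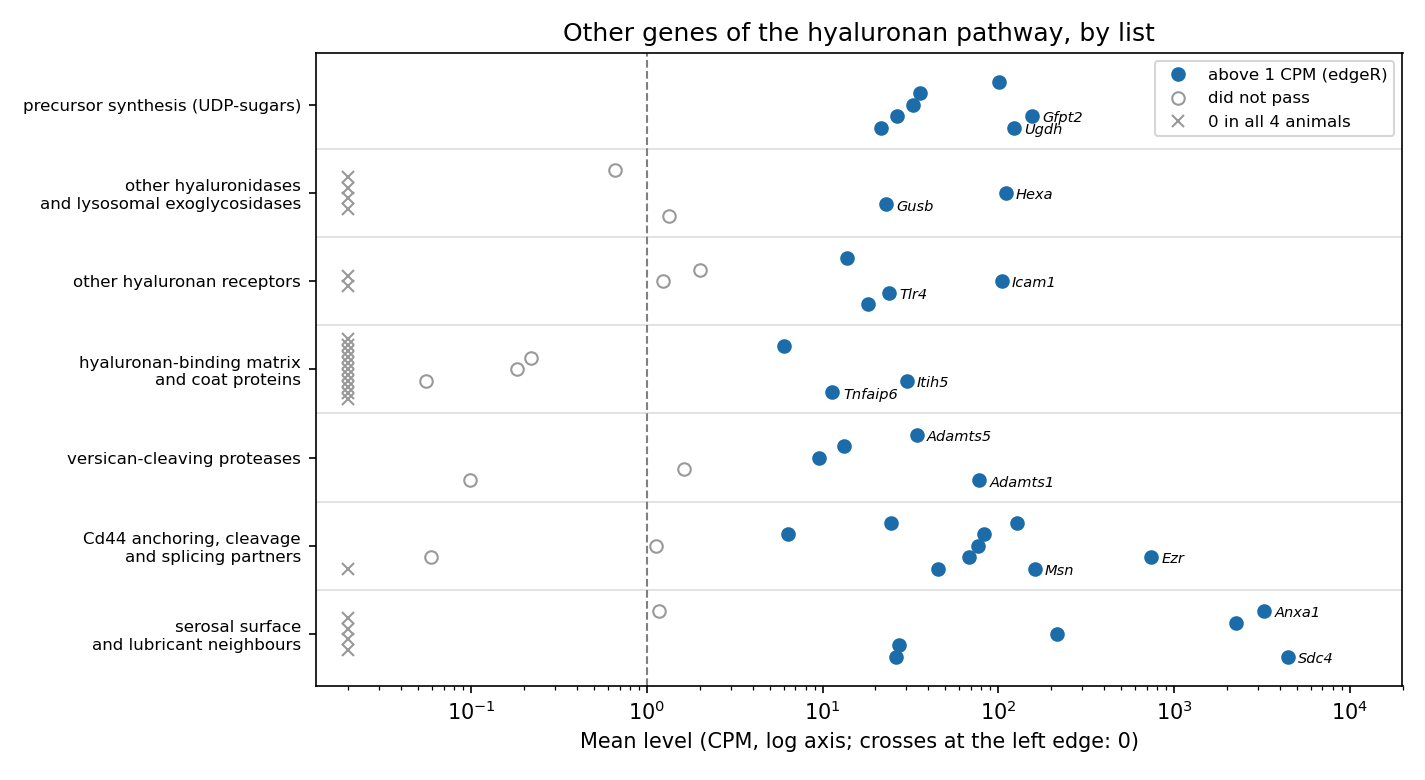
Mean level over 4 animals (CPM, log axis) of the other genes of the hyaluronan pathway, by list. Filled points lay above 1 CPM by edgeR's test, open points did not pass, crosses at the left edge had 0 in all animals, and the dashed line is 1 CPM. All 7 precursor genes pass, whereas 11 of 17 matrix and coat protein genes are at 0.

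Levels of different genes were compared per length, since a longer transcript yields more reads. CPM were divided by the median length in kb of the gene's coding transcripts in GENCODE M21. Hyal2 stood at 26.5 ± 3.07 CPM per kb, Has1 at 22.1 ± 6.04, Cd44 at 11.5 ± 5.00, Prg4 at 7.56 ± 5.73, Hyal1 at 4.99 ± 0.999 and Vcan at 4.98 ± 3.67 CPM per kb. The ranges over animals of neighbours among these 6 overlapped, although within animals Cd44 lay below Has1 in 4 of 4. Tmem2, at 0.859 ± 0.374 CPM per kb, lay below Vcan with ranges that just missed each other (Tmem2 up to 1.31, Vcan from 1.33 CPM per kb), and Has2 (0.111) and Has3 (0.0312 CPM per kb) lay below Tmem2. By level per length Hyal2 ranked 3340 and Has1 3744 among 21469 genes with a coding length, and Tmem2 ranked 11189.

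**Figure D4:**
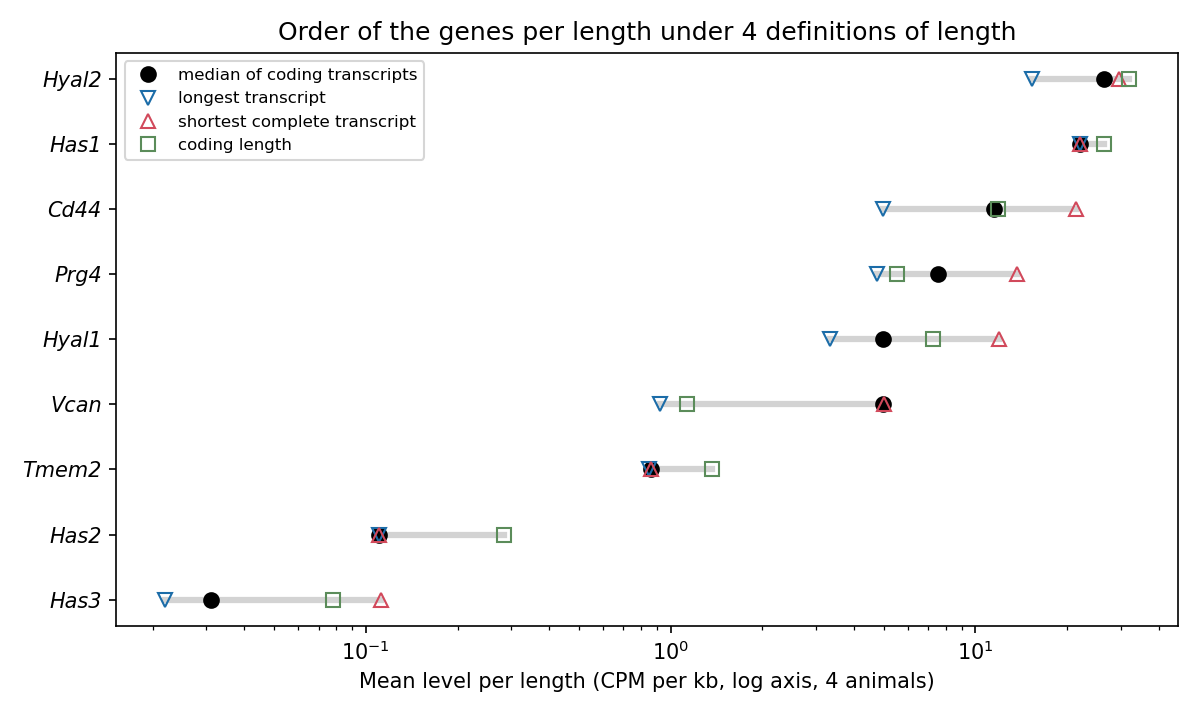
Mean level per length (CPM per kb, log axis, 4 animals) under 4 definitions of a gene's length, joined by a grey bar for each gene. Vcan moves from 4.98 CPM per kb with the median transcript to 0.920 with the longest, and Hyal2 and Has1 keep the top places under every definition.

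The place of Vcan rests on the transcript assumed: its coding transcripts range up to 12427 bases, and with the longest of each gene Vcan stood at 0.920 CPM per kb, where its range overlapped that of Tmem2 (0.851 CPM per kb). With coding length the order turned, with Tmem2 at 1.37 and Vcan at 1.14 CPM per kb. With the longest transcripts Has1 (22.1 CPM per kb) stood above Hyal2 (15.3 CPM per kb).

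Pairs of genes were compared within each animal on the log2 scale per length, with 0.5 CPM added. Across 8 pairs an exact permutation test by sign flips (two-sided) was used, whose smallest p with 4 animals is 0.125, so no pair could pass 0.05. Hyal2 exceeded Hyal1 in 4 of 4 animals, by 2.37 ± 0.42 (SD), at that smallest exact p (0.167 after Benjamini-Hochberg adjustment over the 8 pairs). Tmem2 lay below Hyal1, with a difference of -2.56 ± 0.69, and below Hyal2, with -4.93 ± 0.70, each in 4 of 4 animals at the same exact p. Both the Hyal2 and the Tmem2 comparison with Hyal1 carry the doubt over the shared Hyal1 reads.

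Cd44 lay below Has1 in 4 of 4 animals, with a difference of -0.97 ± 0.72, and above Vcan in 4 of 4, with 1.43 ± 0.79, both at the smallest exact p. The order of Cd44 and Has1 rests on the length used. With the shortest complete transcripts the mean difference was -0.083. Cd44 then reached 34.1 CPM per kb, above the Has1 maximum of 27.1, so the order did not hold in every animal. Prg4 lay below Has1 in 4 of 4 animals, with -1.86 ± 0.89. Prg4 and Cd44 had no fixed order: the difference was -0.89 ± 1.24, with Prg4 the lower in 3 of 4 animals (exact permutation p = 0.25, adjusted 0.286). Prg4 and Vcan differed by 0.54 ± 1.79, with Prg4 the higher in 3 of 4 animals (exact permutation p = 0.625, adjusted 0.625). Animal 3 went the other way, at -1.92, and without animal 4 the mean difference was -0.058.

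**Figure D5:**
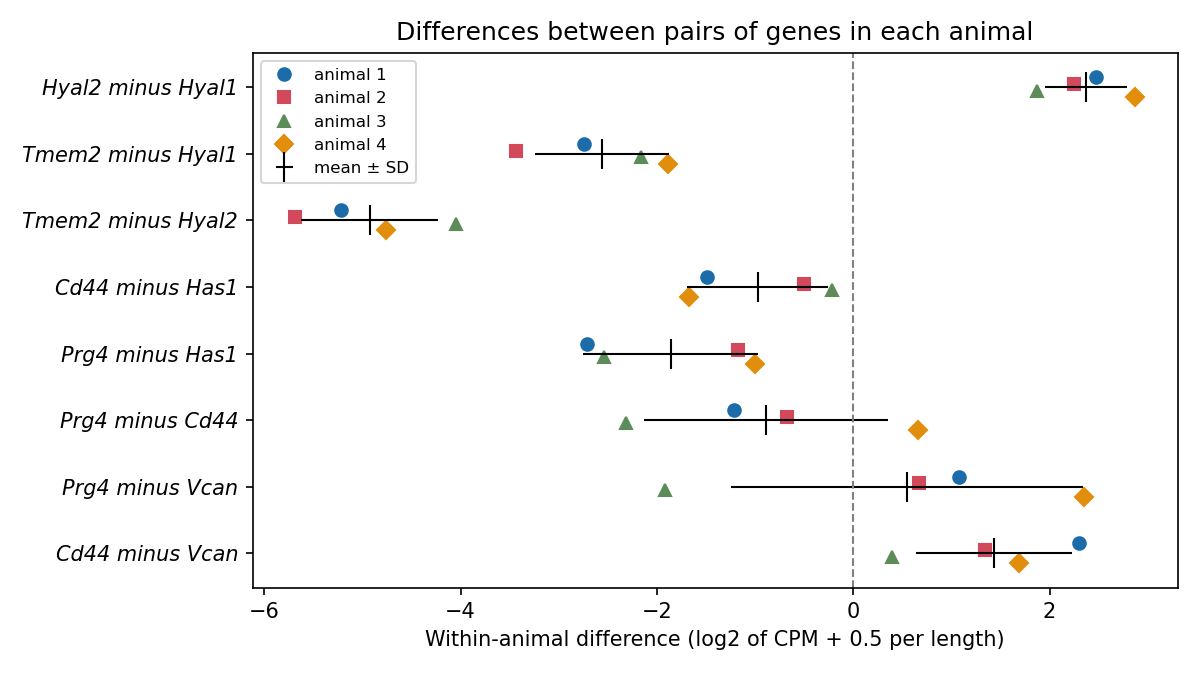
Within-animal difference (log2 of CPM + 0.5, per length) for 8 pairs of genes. Symbols are animals, and the black mark and line are the mean ± SD of 4 animals. Hyal2 lies above Hyal1 and Tmem2 below both in every animal, while Prg4 lies on both sides of Cd44 and of Vcan.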

How the data were processed

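RNA was measured by sequencing of ribosomal-RNA-depleted total RNA from 4 samples of 1 group. The table deposited by the authors holds estimated counts for each gene symbol, 1 column per animal, recognised from the values, of which at least 99.7% of the nonzero ones per library were not whole (within 1e-06). The build GRCm38.p5 and the tools limma 3.38.3, edgeR 3.24.3 and kallisto 0.43.1 are listed, with no role for each, per the submitters' processing notes. The annotation, strand and summing to genes are not given in the sources used here.

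CPM used column sums. For tests, counts were rounded and fitted in edgeR 4.0.16 (R 4.3.3) with an intercept only. The quasi-likelihood F statistic against 1 CPM was computed from deviances, one-sided, and checked on simulated data. DESeq2 1.42.0 and limma 3.58.1 with voom weights were alternatives. Lengths, overlaps and positions came from GENCODE M21 (GRCm38), in which 21469 of 48425 symbols had a coding length, and promoters from RefSeq. RefSeq windows were found for Has1, Hyal1, Hyal2, Cd44 and Vcan. Coding lengths were taken from GENCODE in place of RefSeq proteins. For Has2 and Has3 a ratio of summed counts with its counting interval stands beside the bound from 3 counts.

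Members and lists were chosen with earlier results of these data known. Named were all 9 members, the 3 highest genes of each list, genes at 0 and genes that share sequence with members. Further genes were named after their values were seen, as marked where those values are given. A gene of the exoglycosidase list is not reported here. The 4 samples are described as separate animals. The labels give no batch. The p-values of the level tests rest on the spread between these 4 samples, estimated with information shared over all genes. The sign-flip p-values rest on the 4 within-animal differences of a pair alone.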

Additional observations from a re-analysis of the deposited data

Results flagged for a closer look

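Among 46 sets of 4 values examined, 2 had a sample far from the other 3, where chance flags about 5% of such sets. The Has2 level in animal 4 was 1.66 CPM, against 0 to 0.221 CPM in the other animals. It rests on 7 counts, and its exact Poisson interval overlapped those of the others.

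The summed level of 9 leukocyte markers in animal 1 was 25.6 CPM, against 0.883 to 2.25 CPM in the other animals. Without animal 1, 7 of the 9 hyaluronan and lubrication genes again lay above 1 CPM by edgeR's test, and Cd44 averaged 31.2 CPM, against 27.8 CPM with all 4 animals. The part of these transcripts in the levels of single genes was not tested.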

How the results depend on the processing

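The count of 7 members above 1 CPM was 7 with TMM or RLE scaling, with a minimum of 10 counts, by DESeq2, by limma with voom weights, at 0.5 CPM and without any 1 animal; at 5 CPM it was 6, since Tmem2 did not pass (adjusted p = 1 by edgeR), nor did Habp4 of the matrix list (1). Hyal3 did not pass at any setting; its fitted level lay on the other side of the threshold by voom (adjusted p = 1), at 5 CPM (1) and without animal 2 (1), and edgeR's adjusted p was 0.521 to 1 without 1 animal. The receptor list had 5 genes above the threshold at 0.5 CPM, by voom and with a minimum of 10 counts, against 4 as reported. Mean levels of the members under TMM and RLE scaling moved by less than 1 SD. All genes above 1 CPM numbered 11943 in the reported fit and 11698 to 11843 without 1 animal.

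The length used moved several comparisons between genes. With the shortest complete transcripts the log2 differences were 1.27 for Hyal2 minus Hyal1, -3.82 for Tmem2 minus Hyal1, -0.083 for Cd44 minus Has1 and 2.30 for Cd44 minus Vcan, and 2 members changed place in the order. With the longest they were -4.15 for Tmem2 minus Hyal2, -2.19 for Cd44 minus Has1 and 2.65 for Cd44 minus Vcan, and 2 members changed place. With coding length Cd44 minus Vcan was 3.61, the ratio of Has1 to Has2 was 95.4, and 4 members changed place. With no division by length Tmem2 minus Hyal1 was -0.85, Tmem2 minus Hyal2 was -2.98 and the ratio of Has1 to Has2 was 101. The ratio of Has1 to Has3, 798 as reported, was 222 with the shortest, 1137 with the longest and 383 with coding length, 403 with no length, and 562 to 1196 without 1 animal. Leaving out 1 animal at a time, Prg4 minus Vcan ran from -0.058 (without animal 4) to 1.37, the ratio of Has1 to Has2 from 153 to 1161 (without animal 4), and 0 to 5 members changed place.

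No paired analysis was possible because the series has 1 group and no second one to pair its samples with. The gene pairs are comparisons of genes within an animal.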
